A study of Homo sapiens with 20 samples.

Results

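The mitotic kinases are the 10 genes AURKA, AURKB, PLK1, PLK4, TTK, BUB1, BUB1B, NEK2, MASTL and PBK, taken by symbol from the probe-to-gene table of the array, out of 18417 genes with a named measurement. Each of the 10 had 1 transcript cluster (the probes of 1 transcription unit) with no other symbol. Their expression was measured in B5/589, a line of human mammary epithelial cells made immortal in culture, and every sample carried an inducible p53 transgene. There were 5 groups of 4 arrays. Induced cells had either 3 ng or 5 ng of doxycycline and were collected at 12 h or at 24 h, and uninduced cells (0 ng) were collected at 24 h. Doxycycline switches the transgene on, and the labels give its amount without a volume. No uninduced cells were collected at 12 h, and a second line or an independent clone is not among the samples used here. Whether the 4 arrays of a group stand for separate cultures is not stated in the labels, and the p-values therefore measure a spread between samples that could be technical only.

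Mitotic kinases are enzymes that pass cells through division. Transcripts of most of them build up late in the cell cycle, in G2, and the proteins then mature the centrosomes, build the spindle, watch its attachment to chromosomes and hold back the phosphatases that end mitosis. In cells with active p53, its target CDKN1A (p21) inhibits cyclin-dependent kinases, and pocket proteins then join the MuvB core in the DREAM complex, which represses many genes of G2 and mitosis. DREAM is known to bind a short promoter element, the cell cycle homology region (CHR), often found beside CCAAT boxes, which bind the activator NF-Y.

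Promoter windows from RefSeq (GRCh38.p14), 250 bases before to 50 after a gene's start, were at hand for 7 of the 10 kinases. The stretches below, for 5 of these 7, run from 100 bases before the start to 20 after it on the gene's strand. AURKB and PLK4 are not printed. Whether the letters have a part in the kinases' changes was not tested. Capitals mark the CHR letters TTTGAA or their variant TTCGAA, and CCAAT or its reverse complement ATTGG.
PLK1: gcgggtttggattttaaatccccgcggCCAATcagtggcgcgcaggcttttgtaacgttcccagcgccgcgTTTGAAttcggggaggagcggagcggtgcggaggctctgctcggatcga
BUB1: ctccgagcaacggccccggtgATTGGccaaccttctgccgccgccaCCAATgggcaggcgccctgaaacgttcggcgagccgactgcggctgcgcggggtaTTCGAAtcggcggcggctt
BUB1B: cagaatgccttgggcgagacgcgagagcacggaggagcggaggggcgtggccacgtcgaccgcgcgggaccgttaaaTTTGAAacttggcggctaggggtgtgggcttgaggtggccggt
NEK2: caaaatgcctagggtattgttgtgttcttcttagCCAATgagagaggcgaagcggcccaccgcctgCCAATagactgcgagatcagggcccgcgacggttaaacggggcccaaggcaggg
MASTL: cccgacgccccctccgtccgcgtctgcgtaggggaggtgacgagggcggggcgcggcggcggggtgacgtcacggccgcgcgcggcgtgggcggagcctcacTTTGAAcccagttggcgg
The PLK1 stretch is chr16:23678789-23678908 on the plus strand. The BUB1 stretch is chr2:110678044-110678163 and the NEK2 stretch chr1:211675602-211675721, both on the minus strand. The BUB1B stretch is chr15:40160969-40161088 and the MASTL stretch chr10:27155252-27155371, both on the plus strand.

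The letters TTTGAA (reverse complement TTCAAA) were found in 4 of the 10 windows of the 7 kinases (AURKB has 2 and PLK4 3), against 15.2% of the 35116 promoter windows of all genes. They began 29 bases before the start in PLK1, 23 before it in BUB1B, 3 after it and 248 before it in MASTL, and 39 after it in 1 of the 3 windows of PLK4. BUB1 held TTCGAA, its own reverse complement, 2 bases after its start, and 1.45% of all windows held those letters. CCAAT or ATTGG was found in 6 of the 10 windows, in 5 of the 7 kinases, against 34.6% of all windows. These matches began 73 bases before the start in PLK1, 79 and 54 in BUB1, 66 and 34 in NEK2, 86 in a window of PLK4, and 153 or 129 in AURKB, depending on which of its 2 starts is counted. TTTNNCGC, an E2F-like sequence found in 6.89% of all windows, was in none of the 10 windows. Both strands were searched, and no match of one motif overlapped a match of another in the kinases' windows. A match of letters is not a measured binding site.

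The values are log2 signals as the authors deposited them. Their array medians ran from 4.54 to 5.54, and were 4.54 to 4.99 at 5 ng and 4.74 to 5.01 at 3 ng for 24 h, against 4.94 to 5.28 at 0 ng. The arrays with doxycycline for 24 h were thus dimmer as a whole, and the median change over all genes at 24 h was -0.24 for 5 ng against 0 ng and -0.24 for 3 ng against 0 ng. After quantile normalization these medians were 0.07 and 0.08, and the kinases' results and the counts of the gene lists are given on that scale too. CDKN1A averaged 10.05 ± 0.07 at 5 ng for 24 h and 8.62 ± 0.26 at 0 ng (SD, n = 4 arrays each). Of 8 epithelial markers 6 were measured, and the keratins KRT5, KRT14, KRT8 and KRT18 lay above the 99th percentile of all genes. The immune marker PTPRC lay between -0.97 and 0.03 and the fibroblast marker DCN between -0.63 and 0.84 on all 20 arrays. These were the dimmest measured in their lists, whose brightest were CD14 (4.36 to 6.74) and COL1A1 (5.77 to 6.74). The summed level of the 3 measured immune markers was 4.73 to 5.93 at 5 ng and 6.12 to 6.87 at 0 ng for 24 h on the log2 scale, with CD14 the one that fell. That of the epithelial markers was 14.6 to 14.8 at 5 ng and 14.2 to 14.6 at 0 ng. Among these, 4 rose and EPCAM fell (log2 change -0.85, limma adjusted p = 0.00424). The part of the markers in the results below was not tested.

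At 24 h all 10 mitotic kinases fell in cells given 5 ng of doxycycline relative to 0 ng (limma with Benjamini-Hochberg over 18417 genes, adjusted p under 0.05), a call made for 23.5% of all genes as deposited. For every kinase the 4 arrays at 5 ng lay below the 4 arrays at 0 ng, as they did for 27% of all genes. The falls ran from 6.43-fold in MASTL to 27.8-fold in PLK4, with a median log2 change of -3.84 over the 10 kinases beside -0.24 over all genes. No detection call was used here. At 5 ng for 24 h PLK4 and TTK had log2 signals of 2.88 to 3.97, within the span over all arrays of 3 markers of other cell types (2.44 to 3.85 for CD3E, 3 to 4.23 for VWF and 3.52 to 4.53 for CDH5). Of the other such markers, PTPRC, DCN and PECAM1 lay lower (at most 2.08). COL1A1, COL1A2, COL3A1 and CD14 lay higher (at least 4.36), and PDGFRB overlapped (3.56 to 4.71). Whether PLK4 and TTK were above background was not tested. Their folds at that dose and time may be lower bounds, as may those of MASTL (3.74 to 4.66) and BUB1B (4.44 to 4.79). The order of the falls is that of the deposited signals. In bulk RNA, fewer cells in G2 and mitosis cannot be told apart from less of each transcript per cell.

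**Figure D1:**
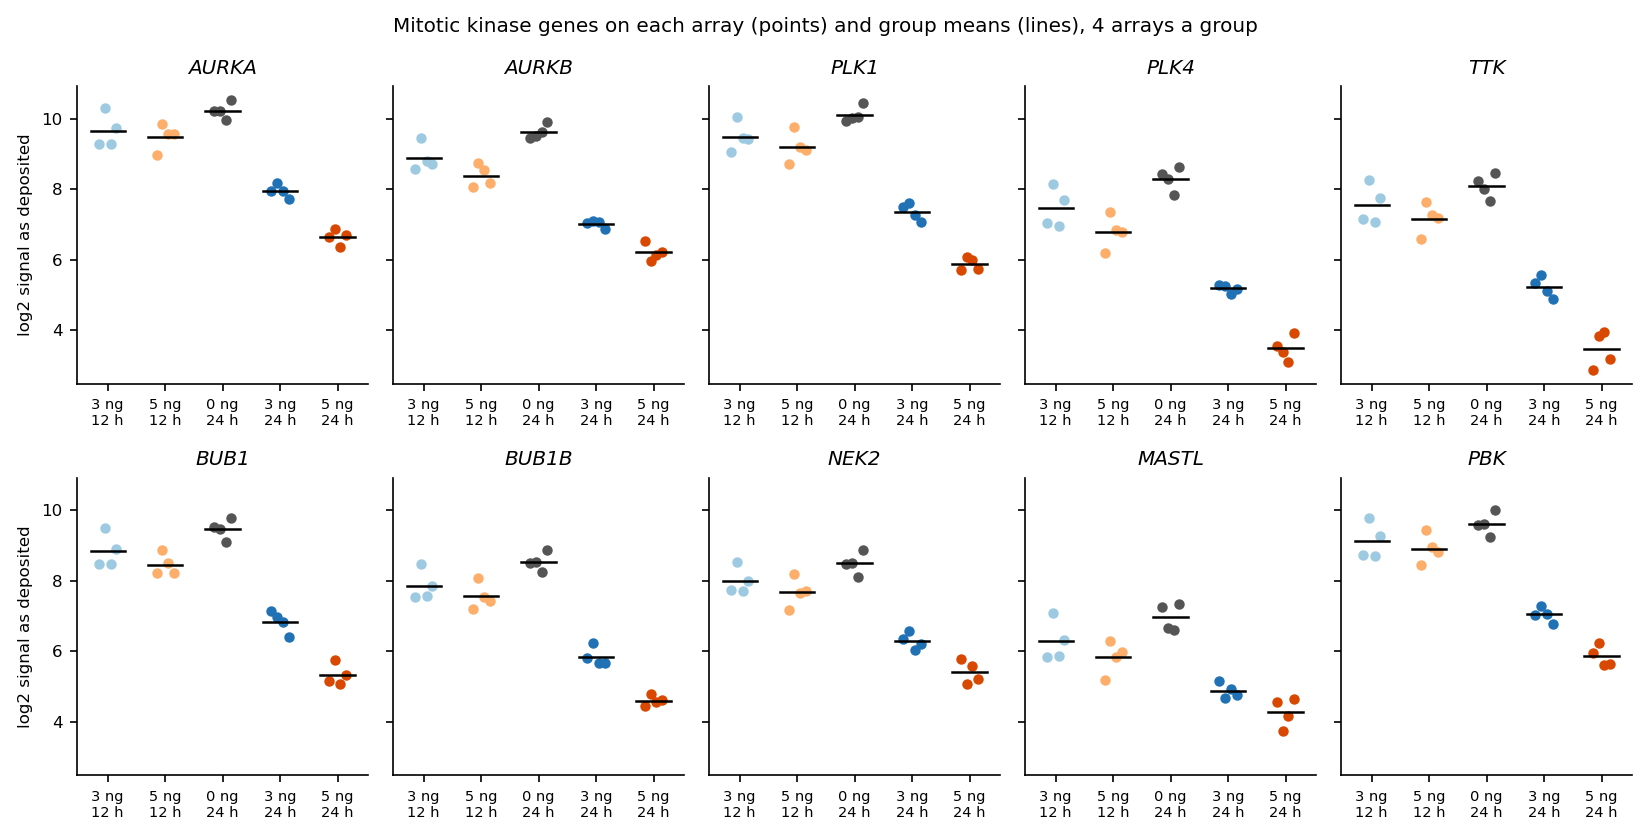
Log2 signal as deposited (y axis) of the 10 kinase genes on each of the 20 arrays (points), by dose and time (x axis), with group means as lines. In every panel the 5 ng arrays of 24 h are the lowest and the 3 ng arrays of 24 h the next, and the means of the 12 h groups lie between these and the mean of the 0 ng arrays.

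The largest of the 10 falls was that of a polo-like kinase. PLK4, the kinase that starts centriole duplication, had log2 signals of 3.56, 3.4, 3.11 and 3.93 at 5 ng, against 8.42, 8.3, 7.83 and 8.63 at 0 ng. Every 5 ng array was thus more than 3 log2 units below every 0 ng array. The log2 change was -4.80 ± 0.26 (SE of the limma model, n = 4 arrays each, adjusted p = 1.69e-11), which ranked 3 among the falls of all 18417 genes. PLK1, which acts in mitotic entry, centrosome maturation and spindle assembly, had 5.7, 6.09, 5.99 and 5.74 at 5 ng, against 9.94, 10.03, 10.05 and 10.43 at 0 ng. The arrays within each group differed little beside the gap between them, and the fall was 18.8-fold (log2 change -4.23 ± 0.21, limma adjusted p = 7.83e-12).

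The checkpoint kinases keep anaphase from starting while chromosomes are unattached. TTK (MPS1), which sets off this signal at kinetochores, had 2.88, 3.83, 3.97 and 3.18 at 5 ng, against 8.24, 8.02, 7.67 and 8.45 at 0 ng. It had the widest spread of the 10 kinases at 5 ng, yet the groups stood well apart (log2 change -4.63 ± 0.28, 24.8-fold, limma adjusted p = 7e-11). BUB1, which recruits checkpoint proteins and marks the inner centromere, had 5.16, 5.76, 5.07 and 5.34 at 5 ng, against 9.52, 9.47, 9.1 and 9.77 at 0 ng. BUB1B (BUBR1), a part of the complex that inhibits the anaphase-promoting complex, had 4.44, 4.79, 4.56 and 4.62 at 5 ng, against 8.51, 8.52, 8.24 and 8.88 at 0 ng. The groups did not overlap for either gene, and the falls were 17.5-fold for BUB1 and 15.3-fold for BUB1B.

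Of the Aurora kinases, AURKA works at centrosomes and spindle poles, where TPX2 activates it. AURKA had 6.65, 6.87, 6.37 and 6.7 at 5 ng, against 10.21, 10.21, 9.95 and 10.54 at 0 ng. AURKB, the kinase of the chromosomal passenger complex, which corrects wrong attachments, had 6.53, 5.96, 6.15 and 6.21 at 5 ng, against 9.45, 9.51, 9.62 and 9.89 at 0 ng. Both were far below their 0 ng arrays, with a log2 change of -3.58 ± 0.22 for AURKA (12.0-fold) and -3.41 ± 0.19 for AURKB (10.6-fold).

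The 3 remaining kinases differ in role. PBK (TOPK), a kinase active in mitosis, had 5.62 to 6.23 at 5 ng, against 9.23 to 9.99 at 0 ng, a 13.4-fold fall. NEK2, which separates the centrosomes before the spindle forms, had 5.08 to 5.78 at 5 ng, against 8.11 to 8.87 at 0 ng, an 8.40-fold fall. MASTL (Greatwall) holds back the phosphatase PP2A-B55 through ENSA and ARPP19. It had 4.57, 3.74, 4.16 and 4.66 at 5 ng, against 7.26, 6.67, 6.59 and 7.35 at 0 ng. Its groups did not overlap, and its fall was the smallest of the 10 (log2 change -2.69 ± 0.28, 95% confidence interval -3.27 to -2.10, limma adjusted p = 2.05e-07). The interval for PLK4 was -5.34 to -4.25. These 2 kinases are the extremes of the 10 as ranked in these same data, and the difference between them was not tested.

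**Figure D2:**
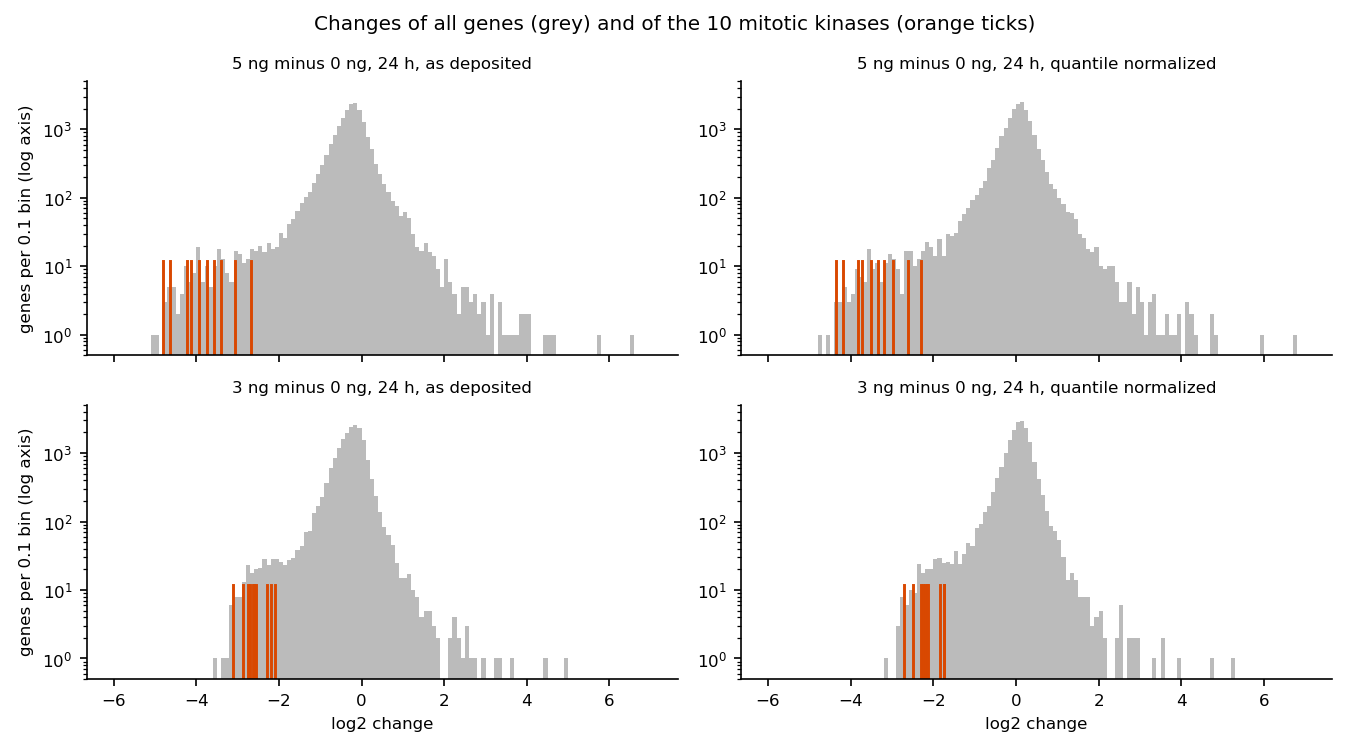
Number of genes (y axis, log scale) by log2 change (x axis, bins of 0.1), for 5 ng minus 0 ng and 3 ng minus 0 ng at 24 h, as deposited and after quantile normalization, with the 10 kinases as orange ticks. The kinases lie in the lower tail in all 4 panels, from -4.80 to -2.69 in the first.

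After quantile normalization all 10 were again called lower, and again none of the groups overlapped. The changes then ran from -4.34 in PLK4 to -2.29 in MASTL, with a median of -3.42. On that scale 17.2% of all genes were called lower and 20.6% higher, in place of 23.5% lower and 4.52% higher as deposited.

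The lower dose gave smaller falls in the same 10 genes at 24 h. All 10 were called lower at 3 ng than at 0 ng, as were 23% of all genes, and none of the groups overlapped, which held in the lower direction for 27.9% of all genes. The comparison uses the same 0 ng arrays as the one at 5 ng. PLK4 had 5.3, 5.26, 5.02 and 5.18 at 3 ng, against 7.83 to 8.63 at 0 ng (log2 change -3.11 ± 0.26, 8.60-fold, limma adjusted p = 3.63e-08). These 3 ng arrays were close together and sat in the gap between the 5 ng and the 0 ng arrays. TTK had 5.33, 5.58, 5.11 and 4.89 at 3 ng, against 7.67 to 8.45 at 0 ng (-2.87 ± 0.28). PLK1 had 7.5, 7.6, 7.28 and 7.06 at 3 ng, against 9.94 to 10.43 at 0 ng (-2.75 ± 0.21). Both fell by less than at 5 ng.

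BUB1B (-2.69), BUB1 (-2.63), AURKB (-2.595) and PBK (-2.56) followed at 3 ng. AURKA had 7.94, 8.18, 7.94 and 7.71 at 3 ng, against 9.95 to 10.54 at 0 ng, a 4.87-fold fall. NEK2 had 6.03 to 6.58 at 3 ng, against 8.11 to 8.87 at 0 ng, a 4.58-fold fall. MASTL had 5.17, 4.67, 4.92 and 4.77 at 3 ng, against 6.59 to 7.35 at 0 ng, again the smallest fall of the 10 (-2.09 ± 0.28, limma adjusted p = 1.32e-05). The median over the 10 kinases was -2.61 as deposited. After quantile normalization all 10 were called lower, with a median of -2.17. On that scale 12.5% of all genes were called lower and 15.4% higher, in place of 23% lower and 1.5% higher as deposited.

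Whether the kinases followed the dose was examined by setting 5 ng directly against 3 ng at 24 h. Of the 10, 9 fell further at 5 ng, where 0.755% of all genes were called lower, and all 10 had 5 ng arrays wholly below the 3 ng arrays, as did 2.9% of all genes. The median change was -1.27, beside -0.005 over all genes. TTK had 2.88 to 3.97 at 5 ng, against 4.89 to 5.58 at 3 ng (log2 change -1.76 ± 0.28, 3.39-fold, limma adjusted p = 0.000945). PLK4 had 3.11 to 3.93 at 5 ng, against 5.02 to 5.3 at 3 ng (-1.69 ± 0.26, 3.23-fold). PLK1 had 5.7 to 6.09 at 5 ng, against 7.06 to 7.6 at 3 ng (-1.48 ± 0.21, limma adjusted p = 0.000418). In all 3 the gap between the groups was wider than the range of either group at 5 ng or 3 ng, except in TTK, where the 5 ng arrays spread over more than the gap.

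BUB1 fell by 1.503 on the log2 scale, AURKA by 1.30, BUB1B by 1.25 and PBK by 1.19. NEK2 (-0.88 ± 0.23, limma adjusted p = 0.0413) and AURKB (-0.81 ± 0.19, limma adjusted p = 0.0192) passed with the smallest changes. MASTL had 4.57, 3.74, 4.16 and 4.66 at 5 ng, against 5.17, 4.67, 4.92 and 4.77 at 3 ng, and did not pass (-0.60 ± 0.28, limma adjusted p = 0.526). Its highest 5 ng array was 4.66 and its lowest 3 ng array 4.67, and after quantile normalization its groups overlapped. On that scale the other 9 were called again, with 4.42% of all genes called lower and 5.96% higher, in place of 0.755% lower and 1.79% higher. The call of AURKB was lost without any 1 of 6 arrays, namely 3 of the 3 ng group at 24 h (replicates 1, 2 and 3) and 3 of the 5 ng group at 24 h (replicates 2, 3 and 4), with changes of -0.81 to -0.73. The call of NEK2 was lost without any 1 of 11 arrays, namely replicates 1, 2 and 4 at 3 ng and replicates 2, 3 and 4 at 5 ng for 24 h, replicates 1 and 2 at 0 ng, replicate 4 at 3 ng for 12 h, and replicates 3 and 4 at 5 ng for 12 h, with changes of -0.93 to -0.76.

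**Figure D3:**
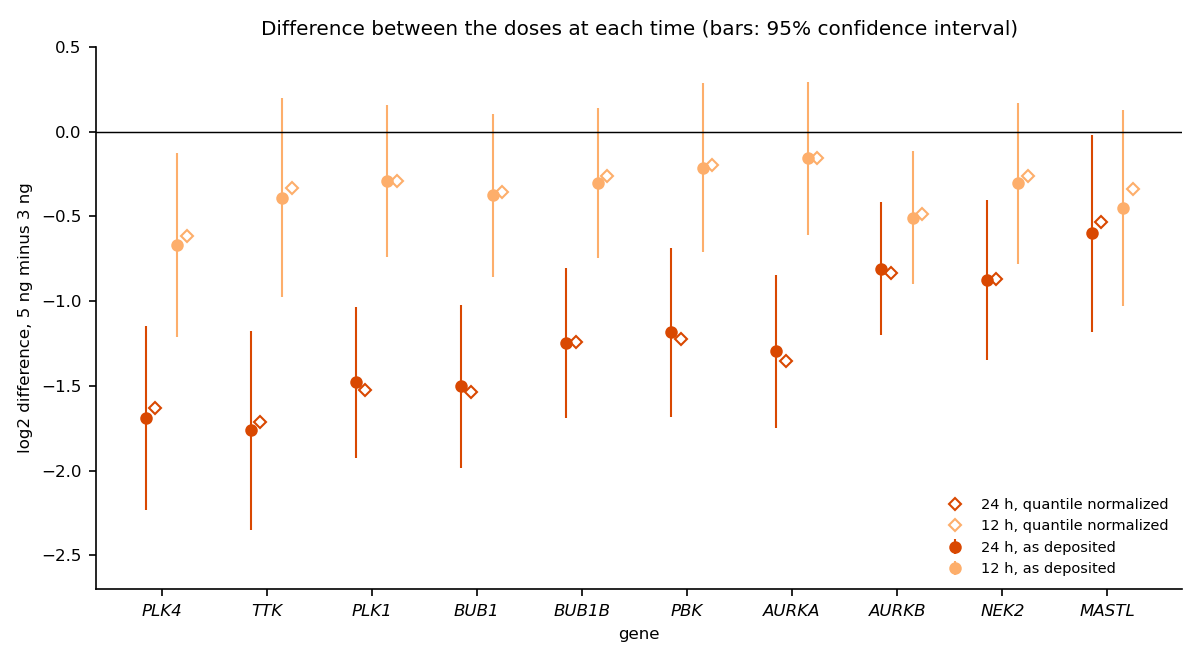
Log2 difference of 5 ng minus 3 ng (y axis) at 24 h and at 12 h for each kinase (x axis), as deposited (filled, with the 95% confidence interval of the model) and after quantile normalization (open). At 24 h the differences run from -1.76 in TTK to -0.60 in MASTL as deposited, and at 12 h from -0.67 in PLK4 to -0.16 in AURKA.

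At 12 h the difference between the doses passed for none of the 10 kinases, beside 0% of all genes called lower and 0.0217% called higher, and the 5 ng and 3 ng arrays overlapped for all 10, while 5 ng lay wholly below 3 ng for 0.402% of all genes. After quantile normalization none was called either, with 0.424% of all genes called lower and 2.32% higher. PLK4 had 6.2, 7.35, 6.84 and 6.8 at 5 ng, against 7.04, 8.16, 6.96 and 7.7 at 3 ng (log2 difference -0.67, 95% interval -1.21 to -0.13, limma adjusted p = 0.824). AURKB had 8.05, 8.75, 8.54 and 8.17 at 5 ng, against 8.57, 9.44, 8.81 and 8.72 at 3 ng (-0.51, 95% interval -0.90 to -0.11). These were the 2 kinases with an unadjusted p under 0.05, as had 5.88% of all genes. AURKA had 8.97, 9.86, 9.57 and 9.55 at 5 ng, against 9.27, 10.29, 9.28 and 9.74 at 3 ng, with the smallest difference of the 10 (-0.16, 95% interval -0.61 to 0.29). The interval for TTK, -0.98 to 0.20, was the widest.

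Scatter within the 12 h groups was shared by the kinases. Replicate 2 was above its group mean for 10 of 10 kinases at 5 ng, by 0.48 on average, and for 10 of 10 at 3 ng, by 0.64. The median of all genes on these arrays was 0.10 below its group's mean at 5 ng and 0.37 above it at 3 ng. Replicate 1 was below its group mean for all 10 in both groups, by 0.47 at 5 ng and 0.37 at 3 ng. Some 24 h arrays showed shared scatter too. Replicate 4 at 0 ng was above its group mean for 10 of 10 kinases (0.34 on average), and replicate 3 for 1 of 10 (-0.30). Replicate 4 at 3 ng for 24 h was above its group mean for 0 of 10 (-0.21). At 5 ng for 24 h the average deviations ran from -0.062 to 0.055. The part of these arrays in the results was not tested beyond leaving each out in turn.

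Set against 0 ng at 24 h, the only uninduced arrays, the 12 h groups differ in both dose and time, which cannot be told apart here. At 5 ng for 12 h 9 of the 10 kinases were lower, as were 11.5% of all genes, and for 8 of the 10 the groups did not overlap, as for 16.4% of all genes in that direction. PLK4 had 6.2 to 7.35 at 5 ng for 12 h, against 7.83 to 8.63 at 0 ng (log2 change -1.498 ± 0.26, 2.82-fold, limma adjusted p = 0.000543). AURKB followed with -1.24 and MASTL with -1.14. MASTL, with the smallest fall of the 10 at 24 h, thus had the third-largest at 12 h, a shift in rank that was not tested. The other changes ran from -1.01 in BUB1 to -0.70 in PBK, which did not pass (limma adjusted p = 0.053).

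Of these calls, TTK (-0.93, limma adjusted p = 0.0308) was lost after quantile normalization (-0.68, limma adjusted p = 0.0619). Leaving out 1 array also ended calls. Among the 5 ng arrays of 12 h, TTK's was lost without replicate 1, 3 or 4, and AURKA's (-0.57) and NEK2's (-0.64) without replicate 1. Among the 0 ng arrays, TTK's was lost without replicate 1, 2 or 4, AURKA's without replicate 1 (-0.75) or 4 (-0.64), and NEK2's without replicate 4 (-0.68). TTK's changes in these 6 cases ran from -0.96 to -0.74. PBK passed without any 1 of 5 arrays, namely replicates 1, 2 and 3 at 3 ng for 12 h, replicate 2 at 5 ng for 12 h and replicate 3 at 0 ng (-0.87 to -0.70). After quantile normalization 8 of the 10 were called, with 14.3% of all genes called lower and 11.5% higher, in place of 11.5% lower and 3.44% higher.

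At 3 ng for 12 h only AURKB was called lower than at 0 ng, beside 1.24% of all genes. AURKB had 8.57, 9.44, 8.81 and 8.72 at 3 ng for 12 h, against 9.45, 9.51, 9.62 and 9.89 at 0 ng (log2 change -0.73 ± 0.19, limma adjusted p = 0.0384). Its lowest 0 ng array (9.45) was just above its highest 3 ng array (9.44), and the groups of the other 9 overlapped. Groups stood apart in that direction for 1.97% of all genes. The other 9 changes ran from -0.83 in PLK4 to -0.49 in PBK, and 8 of the 10 kinases had an unadjusted p under 0.05, as had 19% of all genes. The count hung on single arrays. Without replicate 2 of 3 ng at 12 h 9 kinases were called, and without any 1 of 12 other arrays none was, since AURKB then missed the threshold (changes of -0.79 to -0.63). Those 12 were replicates 1, 3 and 4 of 3 ng at 12 h, all 4 of 0 ng, replicates 1, 2 and 3 of 3 ng at 24 h and replicates 3 and 4 of 5 ng at 24 h. After quantile normalization AURKB, PLK4 and MASTL were called, with 8.57% of all genes called lower and 6.61% higher, in place of 1.24% lower and 1.57% higher.

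**Figure D4:**
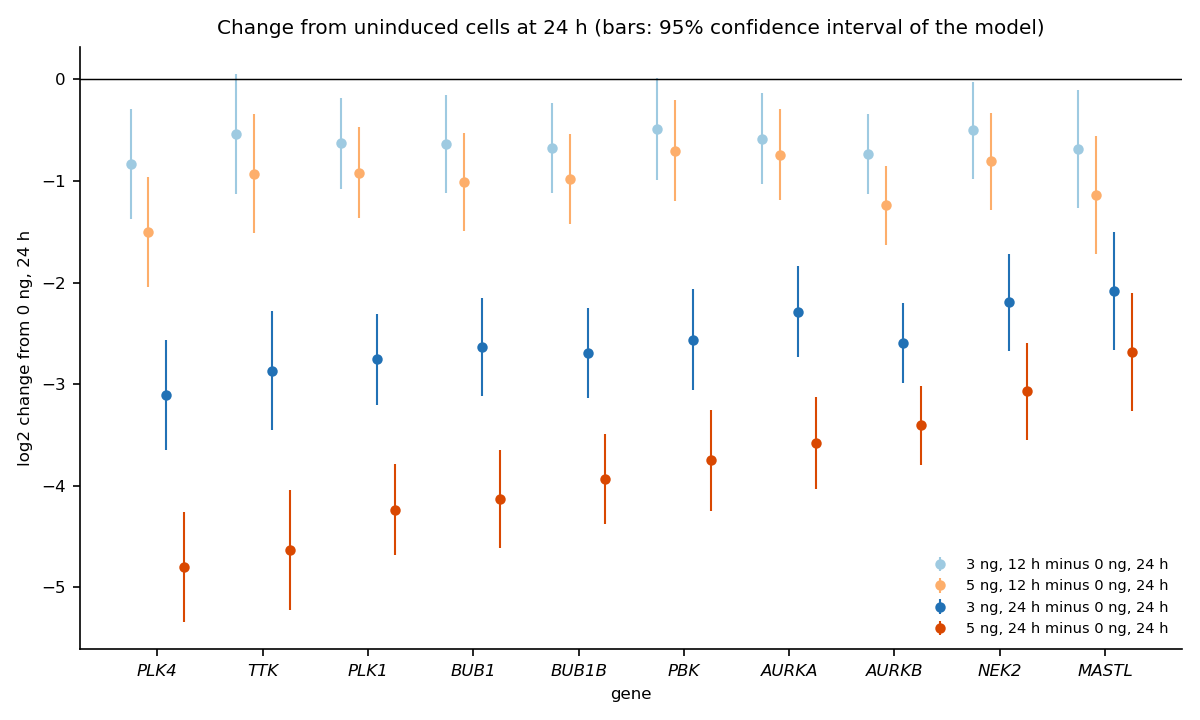
Log2 change (y axis) of each kinase (x axis) in the 4 groups given doxycycline, minus 0 ng at 24 h, with the 95% confidence interval of the model. The falls at 5 ng for 24 h run from -4.80 in PLK4 to -2.69 in MASTL, and those at 3 ng for 12 h from -0.83 to -0.49.

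Between 12 h and 24 h the kinases fell at both doses. At 5 ng all 10 were lower at 24 h than at 12 h, beside 3.55% of all genes, and no kinase's groups overlapped, as for 8.26% of all genes in that direction. TTK had 2.88 to 3.97 at 24 h, against 6.6 to 7.63 at 12 h (log2 change -3.70 ± 0.28, 13.0-fold, limma adjusted p = 1.11e-08). That change ranked 3 among the falls of all genes. PLK1 changed by -3.31, PLK4 by -3.30, BUB1 by -3.12, PBK by -3.05, BUB1B by -2.96 and AURKA by -2.84. NEK2 (-2.26), AURKB (-2.17) and MASTL (-1.55) had the smaller falls.

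At 3 ng all 10 were lower at 24 h than at 12 h too, beside 4.36% of all genes, again without overlap, as for 8.32% of all genes. The changes ran from -2.33 ± 0.28 in TTK to -1.40 ± 0.28 in MASTL, with a median of -2.004. All 10 were also called at each dose after quantile normalization, beside 7.6% of all genes called lower at 5 ng and 6.06% at 3 ng. Genes called higher made up 10.8% at 5 ng and 9.92% at 3 ng on that scale, and 0.424% at 5 ng and 0.0706% at 3 ng as deposited. No uninduced cells of 12 h were at hand to show what time in culture did alone.

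The interaction of dose and time tests whether the 5 ng and 3 ng arrays stood further apart at 24 h than at 12 h. No kinase passed, beside 0% of all 18417 genes in limma as deposited. All 10 differences were negative, from -1.37 ± 0.40 in TTK to -0.15 ± 0.39 in MASTL, and 7 of the 10 had an unadjusted p under 0.05, as had 2.12% of all genes. These 7 were PLK1 (-1.19), AURKA (-1.14), BUB1 (-1.13), PLK4 (-1.02), PBK (-0.97), BUB1B (-0.94) and TTK. After quantile normalization AURKA passed (-1.20, limma adjusted p = 0.0165), beside 0.0652% of all genes, and PLK1 came next (-1.23, limma adjusted p = 0.0581).

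In order of its group means each kinase ran, from the highest, 0 ng at 24 h, 3 ng at 12 h, 5 ng at 12 h, 3 ng at 24 h and 5 ng at 24 h. The step between the 2 groups of 12 h passed for none of the 10, that between 3 ng at 12 h and 0 ng for AURKB alone, and that between 5 ng and 3 ng at 24 h for all but MASTL.

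Related kinases (PLK4 with PLK1, AURKA with AURKB and BUB1 with BUB1B) were compared directly, as the difference of their changes on the same arrays, in 12 values with exact two-sided permutation tests whose smallest possible p is 0.0286. None passed after adjustment over the 12, where a value at the smallest possible p could not pass alone. PLK4 minus PLK1 was -0.56 for 5 ng against 0 ng at 24 h (exact p = 0.143, adjusted 0.245). AURKA minus AURKB was 0.31 for 3 ng against 0 ng at 24 h, with the arrays of the 2 groups wholly apart (exact p = 0.0286, adjusted 0.229), and -0.18 for 5 ng against 0 ng (exact p = 0.429). BUB1 minus BUB1B was -0.20 for 5 ng against 0 ng (exact p = 0.114). With 4 arrays a group these values do not show that the members of a pair changed alike.

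Across the 20 arrays the 10 kinases moved closely together, with Pearson's r between 0.920 and 0.996 in their 45 pairs and a median of 0.982. The points share dose, time and the brightness of each array, so r here describes the pattern over 5 groups. Outside the 10, the genes whose pattern was most like the kinases' mean were PRC1, a bundler of midzone microtubules (r = 0.998), TPX2, the activator of AURKA (r = 0.997), NCAPG, a condensin subunit (r = 0.997), CCNA2, cyclin A (r = 0.997), and RACGAP1, of the centralspindlin complex (r = 0.997). That order is as deposited. After quantile normalization NCAPD2 ranked 2 and TPX2 ranked 7, while PRC1, RACGAP1, NCAPG and CCNA2 ranked 1, 3, 4 and 5. For AURKA itself the most alike gene was TPX2 (r = 0.998), for PLK1 CCNA2 (r = 0.998), for TTK NUF2, a kinetochore protein (r = 0.997), and for BUB1B the proliferation marker MKI67 (r = 0.997). The same genes led after quantile normalization for these 4 kinases and for MASTL, whose most alike gene was CEP128 (r = 0.985). For AURKB, PLK4, BUB1, NEK2 and PBK the most alike genes as deposited were CDC45, RRM2, PRC1, POLQ and KIF2C, and other genes took their place after quantile normalization.

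Activators, partners and substrates of the kinases fell in 20 of 23 at 5 ng against 0 ng at 24 h, with a median of -3.04, beside 23.5% of all genes called lower and a median of -0.24 for all genes. After quantile normalization 20 of the 23 were lower, with a median of -2.64, beside 17.2% of all genes called lower. SGO1, which guards centromeric cohesion and is placed there through BUB1, changed by -4.62 ± 0.29, STIL, the PLK4 partner in centriole duplication, by -4.09 ± 0.25, MAD2L1, the checkpoint protein, by -3.91 ± 0.27 and CDK1, the kinase of mitotic entry, by -3.88 ± 0.24 (limma adjusted p of 4.5e-10 or less for each). Of the partners of AURKB in the chromosomal passenger complex, CDCA8 changed by -3.41, BIRC5 (survivin) by -3.04 and INCENP by -2.08. The 3 that did not pass were BUB3 (-0.43), ENSA (-0.34) and MAD1L1 (-0.23). Of the MASTL substrates, ARPP19 (-0.58, limma adjusted p = 0.0135) passed, with -0.22 after quantile normalization. Between 5 ng and 3 ng at 24 h 11 of the 23 fell, beside 0.755% of all genes called lower. After quantile normalization 16 were lower and 1 higher, beside 4.42% of all genes lower and 5.96% higher.

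Among 14 other kinases with roles in mitosis, 8 fell and 1 rose at 5 ng against 0 ng at 24 h (median -0.77), beside 23.5% lower and 4.52% higher among all genes. MELK (-3.71 ± 0.23), CIT (citron kinase, of cytokinesis, -3.22 ± 0.21), HASPIN, which marks histone H3 at centromeres (-2.95 ± 0.21), and PKMYT1, an inhibitor of CDK1 (-2.52 ± 0.19), had the largest falls. The stress-responsive polo-like kinase PLK3 rose (0.92 ± 0.13, limma adjusted p = 2.08e-05). It had 8.97, 8.94, 9.13 and 8.92 at 5 ng, against 8.12, 7.84, 8.03 and 8.29 at 0 ng. All of its 5 ng arrays lay above its 0 ng arrays, as for 4.94% of all genes, where those of PLK1 and PLK4 lay below. PLK2 (-0.52), AURKC (-0.38), NEK7 (-0.39), NEK9 (-0.34) and LATS2 (0.17) did not pass. After quantile normalization 8 fell and 2 rose, beside 17.2% of all genes called lower and 20.6% higher.

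Of 16 transcription regulators of mitotic genes 13 fell (median -1.28), beside 23.5% of all genes called lower and the median of -0.24. They were led by FOXM1, an activator of G2 genes (-3.57 ± 0.19), MYBL2 (B-MYB, -3.38 ± 0.22), the pocket protein RBL1 (p107, -2.50 ± 0.20) and LIN9, of the MuvB core (-2.32 ± 0.24). LIN37, NFYC and RBL2 (p130) did not pass. After quantile normalization 12 fell and 2 rose, beside 17.2% of all genes called lower and 20.6% higher. Between 5 ng and 3 ng at 24 h FOXM1 (-1.20) and MYBL2 (-0.83) fell and the other 14 did not pass, beside 0.755% of all genes called lower. After quantile normalization 5 of the 16 were lower between these doses, RBL1, E2F5 and TFDP1 besides these 2, where 4.42% of all genes were called lower.

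The machinery that degrades mitotic proteins fell in 8 of 12 (median -0.996), beside 23.5% of all genes called lower, with FBXO5 (EMI1, an inhibitor of the anaphase-promoting complex) at -4.25 ± 0.23, CDC20, an activator of that complex, at -3.44 ± 0.23, and the ubiquitin-conjugating enzymes UBE2C at -2.73 ± 0.19 and UBE2S at -2.13 ± 0.17. After quantile normalization 8 fell and 1 rose, beside 17.2% of all genes called lower and 20.6% higher. Phosphatases that oppose the kinases fell in 4 of 13, a share near the 23.5% of all genes called lower (median -0.35, beside -0.24 for all genes). They were PPP2R5A (-0.72 ± 0.18) and PPP2R5C (-0.69 ± 0.17), regulatory subunits of PP2A, and the catalytic subunits PPP1CC (-0.51 ± 0.17) and PPP2CA (-0.48 ± 0.16). After quantile normalization 4 of the phosphatases were lower and 2 higher, with a median of -0.02, beside 17.2% of all genes lower and 20.6% higher. The changes of the 4 named were then smaller, from -0.33 for PPP2R5A to -0.21 for PPP2CA.

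**Figure D5:**
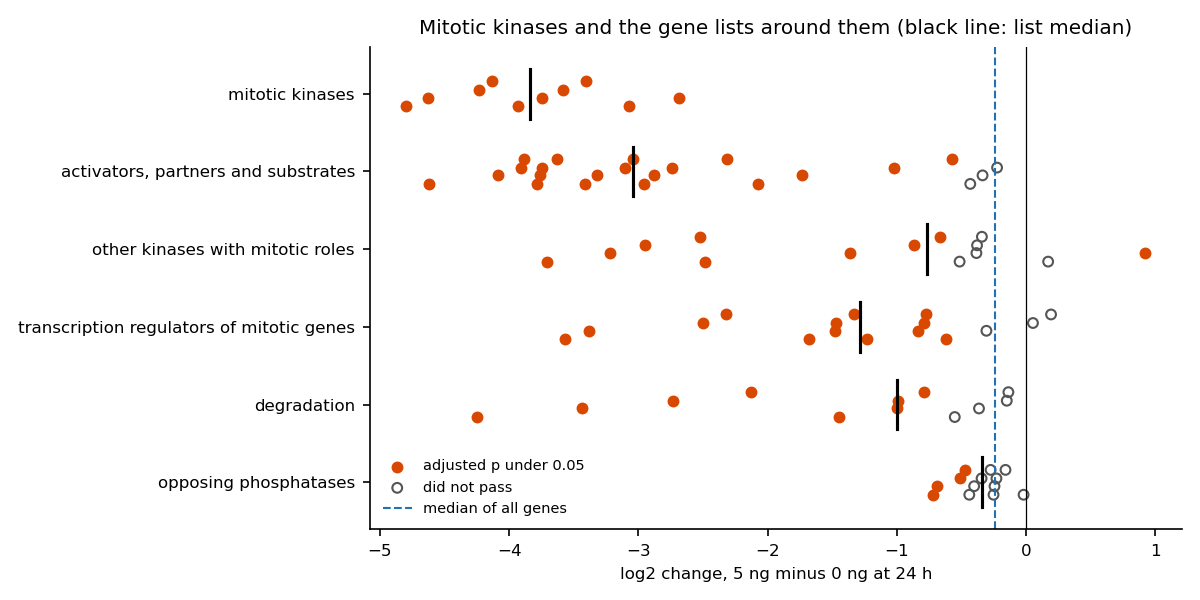
Log2 change at 5 ng minus 0 ng at 24 h (x axis) for each gene of the mitotic kinases and of 5 gene lists around them (rows), with the list median as a black line and the median of all genes dashed. Filled points passed (limma adjusted p under 0.05). The kinases' median is -3.84 and that of the opposing phosphatases -0.35, near the -0.24 of all genes.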

How the data were processed

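Total RNA was labelled with biotin and hybridised to 20 Affymetrix arrays, 4 in each of 5 groups taken from the labels. The deposited values are log2 signals, 1 per transcript cluster and array. The submitters' processing notes name limma, GCRMA, GCOS and Affymetrix Power Tools, with no version or order. No genome build is used, its name being not given in the sources used here. Of 33297 clusters, 19460 have 1 gene symbol in the platform annotation, 1754 several and 12083 none listed. Symbols were checked through Entrez IDs (19429 matched), and the brightest cluster of a gene was kept, giving 18417 genes. No array pair held identical values (correlations 0.966 to 0.994).

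A model with 1 mean per group was fitted to all 20 arrays with limma 3.58.1 in R 4.3.3 (lmFit and eBayes, 15 residual degrees of freedom), with Benjamini-Hochberg adjustment over all genes and a threshold of 0.05. The procedure was tested on simulated data, drawn independently for each gene and array. Scatter shared by genes on an array was not simulated. Error bars and SE come from the limma model of the real arrays. The number of arrays limits the precision. Quantile normalization used all clusters. Other alternatives were centring each array on its median, removing the dimmest 30% of genes, the mean of a gene's clusters, only the groups compared, a replicate block, eBayes with trend and robust options, array weights (gene-by-gene estimation, since the default did not converge) and leaving out each array.

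All 10 kinases were tested and counted in every comparison. In some comparisons only part of them are named, picked after their values were seen. Also named are, from each list, at most 4 genes that passed with the largest changes at 5 ng against 0 ng, and the genes most alike by Pearson's r. Other genes were named after their values were seen. The kinases and lists were chosen with earlier results of these data known. Induction was checked by CDKN1A and MDM2 (at 24 h MDM2 averaged 12.56 ± 0.07 at 5 ng and 12.09 ± 0.29 at 0 ng, SD, n = 4; at 3 ng it averaged 12.27 ± 0.10 and was not called as deposited, with a change of 0.18, limma adjusted p = 0.438, but was after quantile normalization, with 0.48), 1 further listed gene being not reported here, and cell type by epithelial, fibroblast, endothelial and immune markers, 6 of 8, 5 of 5, 3 of 3 and 3 of 4 measured. At 5 ng against 0 ng for 24 h, 4 epithelial markers rose and 1 (EPCAM) fell, 1 immune marker (CD14) fell, and no fibroblast or endothelial marker was called, all as deposited. Of all genes 4.52% were called higher and 23.5% lower there, and 20.6% higher and 17.2% lower after quantile normalization. After quantile normalization 5 epithelial markers rose and 1 fell, and the endothelial marker VWF rose (0.41, limma adjusted p = 0.0317).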

Additional observations from a re-analysis of the deposited data

How the results depend on the processing

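The counts of kinases called lower at 24 h, 10 at 5 ng and 10 at 3 ng against 0 ng and 10 at each dose against 12 h, held under all 8 alternatives and all 20 exclusions of 1 array. The count of 9 for 5 ng against 3 ng at 24 h ran from 7 to 9 over the exclusions, and that of 9 for 5 ng at 12 h against 0 ng from 6 to 10. For 3 ng at 12 h against 0 ng the count of 1 became 3 after quantile normalization, 7 after centring, 3 without the dimmest genes, 0 with only the groups compared, 3 with the replicate block, 5 with trend and robust options, 6 with array weights and 0 to 9 without 1 array. The replicate block also let PBK pass for 5 ng at 12 h against 0 ng (-0.70, limma adjusted p = 0.0207) and moved no other count of kinases. The labels name no batch shared by a replicate number. Deviations from the group means correlated over 0.1 in 13 of 40 same-numbered pairs of arrays (r from -0.18 to 0.50), so the numbers were not taken to pair the arrays. The median r was 0.06 for same-numbered pairs and -0.02 for others, and 10 of 20 arrays as deposited, but 18 of 20 after quantile normalization, correlated best with their own number, a hint from the data and not from the design. For the interaction the count of 0 became 1 after quantile normalization and 4 with array weights (AURKA, PLK1, BUB1 and PBK), and stayed 0 without any 1 array. The cause of these shifts was not tested.

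Signs turned only in differences that no setting called: AURKA for 5 ng against 3 ng at 12 h (0.0690 with array weights, and -0.283 to 0.0575 without 1 array, above 0 without replicate 2 at 3 ng or replicate 1 at 5 ng), PBK in the same comparison (-0.387 to 0.00417, above 0 without replicate 2 at 3 ng), MASTL in the interaction (-0.417 to 0.0308, above 0 without replicate 2 at 5 ng of either time), and BUB1 minus BUB1B for 3 ng against 0 ng at 24 h (-0.0508 to 0.146, below 0 without replicate 1 at 3 ng). Of 2520 recomputed changes of single kinases, 2428 kept their direction and side of the threshold, 42 lost and 44 gained a call, and 6 reversed.

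Over all genes, the 468 calls for 5 ng against 3 ng at 24 h ran from 462 to 1911 over the alternatives and from 276 to 579 without 1 array. The 4 at 12 h ran from 0 to 506 and 0 to 11, the 2750 for 5 ng at 12 h against 0 ng from 1848 to 5230 and 1510 to 3599, and the 519 for 3 ng at 12 h from 232 to 3621 and 257 to 2782. The 731 for 24 h against 12 h at 5 ng ran from 726 to 4072 and 506 to 920, the 816 at 3 ng from 606 to 2943 and 484 to 1395, and the 0 of the interaction from 0 to 27. For 5 ng against 0 ng at 24 h the 5166 stayed within 3956 to 6958, and for 3 ng the 4504 within 2782 to 6498.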

Other observations

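KIF20A, a kinesin of the central spindle that carries the chromosomal passenger complex and binds PLK1, was chosen after its values were seen, for the largest positive difference between 5 ng and 3 ng at 24 h among the 23 partners. At 24 h it had 7.73, 7.72, 7.51 and 7.77 at 5 ng, against 7.08, 7.05, 7.06 and 6.76 at 3 ng. The 5 ng arrays were thus all above the 3 ng arrays, as they were for 8.31% of all genes, where all 10 mitotic kinases lay below them. The log2 difference was 0.70 ± 0.21 (SE, n = 4 arrays each) and did not pass as deposited (limma adjusted p = 0.101), but did after quantile normalization (0.64, limma adjusted p = 0.000824) and after centring (0.74, limma adjusted p = 0.00438). Both doses were below 0 ng, by log2 changes of -1.73 at 5 ng and -2.43 at 3 ng. At 12 h its difference between the doses was 0.14 (limma adjusted p = 0.895).

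PLK3 also rose at 5 ng against 3 ng at 24 h (0.64 ± 0.13, limma adjusted p = 0.00825) and at 5 ng for 12 h against 0 ng (0.70, limma adjusted p = 0.00135). At 3 ng for 24 h it was 0.28 above 0 ng as deposited (limma adjusted p = 0.148) and 0.74 above it after quantile normalization (limma adjusted p = 3.48e-05).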
